A study of Mus musculus with 6 samples.

Results

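The genes described here make cholesterol, move it within the cell, export it or store it. They are 30 genes picked by name from textbook knowledge of the pathway, out of 38896 gene symbols in the count table. Earlier results of these data were known when they were picked. All 30 were present and passed the filter on low counts. They were divided by role into 25 genes of synthesis and uptake and 5 of efflux and storage. The RNA came from colonic fibroblasts, the connective-tissue cells under the gut epithelium, taken from the distal colon of 6-week-old mice. The cells had been through 2 passages and then spent 24 h in conditioned medium. In the control group the medium was a control one, and in the group labelled DSS it was taken to be the inflammatory one. DSS usually stands for dextran sulfate sodium, a chemical that causes colitis in mice. The sources used here do not give the way the media were made, nor the strain, sex or any allele of the mice, and the genotype label holds only the words control and DSS. Mice 1716, 1717 and 1718 each gave 1 control and 1 DSS culture, so n = 3 in each group and the libraries pair by animal.

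Cholesterol is built from acetyl-CoA in the cytosol and endoplasmic reticulum. The mevalonate part makes isoprenoid units and joins them to farnesyl diphosphate, and the squalene and sterol part turns this into cholesterol. When membrane sterol is low, Scap escorts the transcription factors encoded by Srebf1 and Srebf2 to the Golgi for activation, and Insig proteins hold Scap back when sterol is high. Oxidised sterols activate the liver X receptors (Nr1h2, Nr1h3), which raise the exporters Abca1 and Abcg1, and Soat1 turns surplus cholesterol into esters for storage. Fibroblasts have long served as the cell type in which this feedback is studied.

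Libraries held 17293680 to 19482938 estimated counts, and the 30 genes together took 0.161 to 0.191% of them. Levels are counts scaled to a common library total (CPM, with TMM factors). Each change is a log2 fold change, DSS over control, with its SE. A gene is called where edgeR's quasi-likelihood test gave a Benjamini-Hochberg adjusted p under 0.05 over all 19869 genes tested. The labelled cell type was checked against marker genes. The 8 fibroblast markers summed to 27415 to 33505 CPM in control and 16888 to 19206 CPM in DSS, and 4 fell and 1 rose. Most of the sum was Col1a1 and Col1a2, with means of 17959 and 8740 CPM in control. Both fell, as did Pdgfrb and Vim, while Pdgfra rose. With the mouse as a block Dcn was higher too and Thy1 lower, and Lum was called in neither fit. Epithelial markers summed to at most 2.33 CPM. The 2 smooth muscle markers summed to 398 to 447 CPM in control and 490 to 579 CPM in DSS, and 1 of them, Myh11, rose. Most of this sum was Myh11, with a mean of 392 CPM in control against 28.9 CPM for Des. Des went the other way, by -0.90 ± 0.37 on the log2 scale, and was called, as lower, only with the mouse as a block. The 4 markers of endothelium summed to 10.3 to 17.3 CPM in control and 6.26 to 10.1 CPM in DSS. None of these 4 was called, but Pecam1 and Tek were lower with the mouse as a block. The 4 adipocyte markers summed to 0.803 to 0.986 CPM in control and 2.40 to 3.24 CPM in DSS; Fabp4 rose, by 1.64 on the log2 scale, and Adipoq was at 0 in every library. The markers singled out here are named after their values were seen. The part of these cell types in the results was not tested. Macrophage and other leukocyte markers were present too, and their values stand with those of the exporters.

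In the fit with group as the only term, few of the cholesterol genes were called, and the changes of those called were small. At n = 3 a gene that was not called is not thereby shown to be unchanged. In DSS cultures 3 enzymes of synthesis were lower, namely Hmgcs1, Fdps and Cyp51, by 21.8 to 34.6%. The feedback gene Insig2 and the liver X receptor gene Nr1h2 were higher, by 24.0 and 26.5%. These 5 of 30 (16.7%) compare with 13.3% of all genes tested, so the share called lay near the background. By direction, 2 members rose (7.37% of all genes did) and 3 fell (5.91% of all genes did). In a fit that uses the pairing, with the mouse as a block, 4 rose (background 12.3%) and 7 fell (background 12.7%). These 11 of 30 (36.7%), against 25.0% of all genes, were the same 5 together with Mvk, Sqle, Nsdhl, Srebf2, Sc5d and Abcg1. That number belongs to edgeR: DESeq2 with the same block called 5 of 30 (16.7%, against 16.6% of 18328 genes). Of these Nr1h2 and Abcg1 were higher (8.02% of all genes were) and Hmgcs1, Cyp51 and Sqle lower (8.56% of all genes were). Elsewhere the block stands in the edgeR fit unless DESeq2 is named. No member changed by as much as 2-fold in the edgeR fit.

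**Figure D1:**
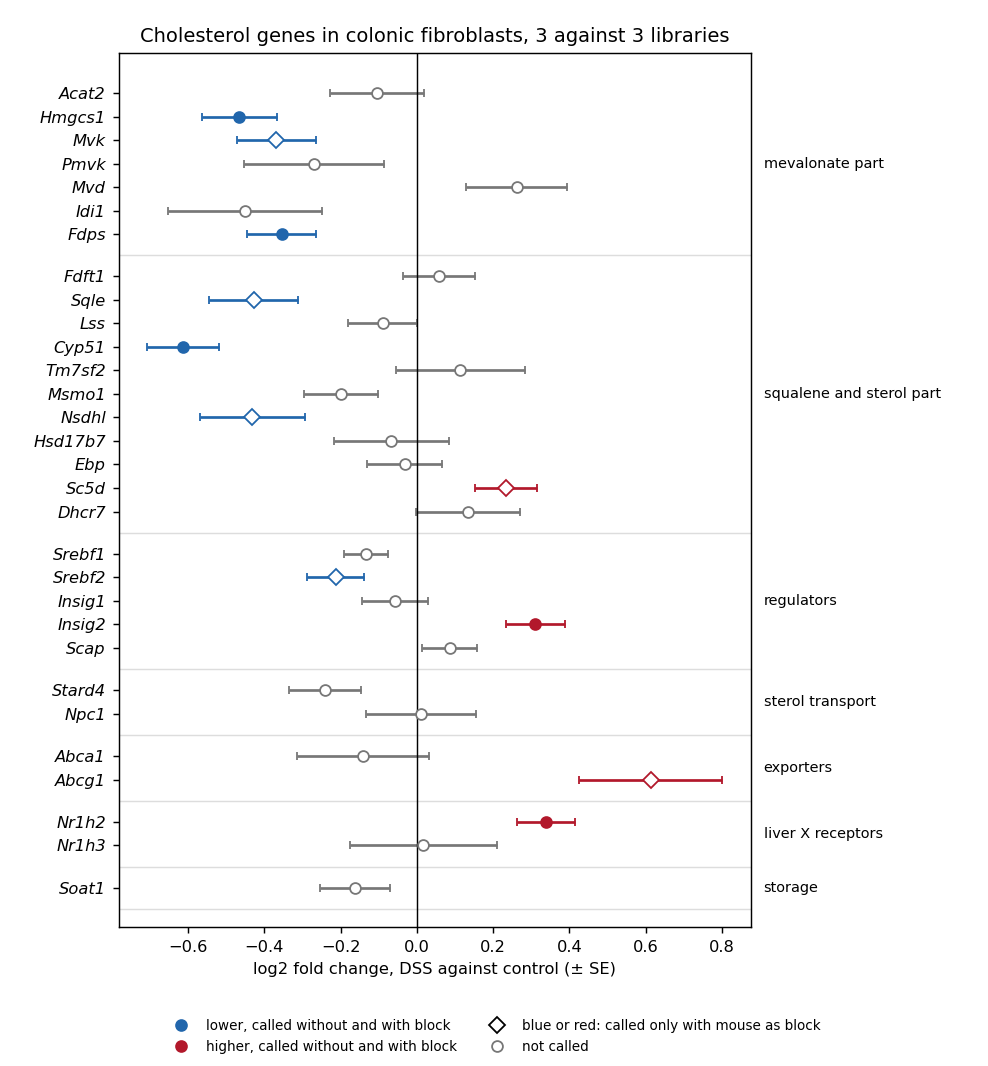
Log2 fold change of DSS against control with its SE for each of the 30 genes (rows, by role), from edgeR on 3 against 3 libraries. Filled points are called without and with the mouse as a block, diamonds only with it, and open grey circles in neither; changes run from -0.61 (Cyp51) to 0.61 (Abcg1).

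The upstream windows of 4 called genes are shown because the factors of this pathway act through short elements near the start site. They are the 250 bases before the start in RefSeq (GRCm38.p6), and the table held such windows for 24 of the 30 genes. Fdps, Fdft1, Sqle, Stard4, Npc1 and Abcg1 had no entry. Capitals mark matches, on either strand, of the letters TCACNCCAC (a sterol regulatory element), CCAAT (the NF-Y box) or GGGCGG (an Sp1 box). The windows lie at chr13:119690101-119690350 (plus strand, Hmgcs1), chr5:4104698-4104947 (minus strand, Cyp51), chr1:121332590-121332839 (minus strand, Insig2) and chr7:44553966-44554215 (minus strand, Nr1h2).
Hmgcs1: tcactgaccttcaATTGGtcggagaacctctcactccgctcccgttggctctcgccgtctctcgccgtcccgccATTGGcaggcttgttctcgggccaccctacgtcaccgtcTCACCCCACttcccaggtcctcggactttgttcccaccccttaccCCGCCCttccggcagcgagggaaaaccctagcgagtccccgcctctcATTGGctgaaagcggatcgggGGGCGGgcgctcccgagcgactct
Cyp51: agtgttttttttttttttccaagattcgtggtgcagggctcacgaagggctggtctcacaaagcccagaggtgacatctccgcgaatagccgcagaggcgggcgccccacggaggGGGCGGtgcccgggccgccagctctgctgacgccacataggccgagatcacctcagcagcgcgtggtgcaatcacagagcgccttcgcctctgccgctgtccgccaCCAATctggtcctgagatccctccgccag
Insig2: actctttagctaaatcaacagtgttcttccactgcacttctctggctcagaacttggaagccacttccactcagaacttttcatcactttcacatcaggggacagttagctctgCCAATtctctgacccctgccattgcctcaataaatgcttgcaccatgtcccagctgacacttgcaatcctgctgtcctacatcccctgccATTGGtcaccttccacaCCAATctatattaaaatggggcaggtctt
Nr1h2: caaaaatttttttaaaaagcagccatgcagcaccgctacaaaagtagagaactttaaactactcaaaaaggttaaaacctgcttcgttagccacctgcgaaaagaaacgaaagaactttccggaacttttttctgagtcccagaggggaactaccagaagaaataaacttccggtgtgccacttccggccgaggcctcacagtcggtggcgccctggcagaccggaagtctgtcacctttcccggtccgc

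The Hmgcs1 window held TCACCCCAC on the strand of the gene, from 137 to 129 bases before the start. Hmgcs1 was the only one of the 24 genes whose windows held the sterol element letters. They were found for 1.225% of all 27025 genes with a window, and in 1.05% of all 32851 windows of this length. Other forms of the sterol element were not searched, so genes without these letters may still hold one. Counted by gene, any window with CCAAT was found for 19 of the 24 members, among them 14 of 15 enzymes of synthesis. Of all 27025 genes with a window, 37.5% had one, and 33.8% of all windows did. GGGCGG was found for 20 of 24 members, against 35.4% of all genes and 32.7% of all windows. Some genes have several start sites and so several windows, and the Insig2 window shown is the one farthest upstream of 3. The Nr1h2 window held none of the letters searched. Liver X receptors bind an element of 2 receptor sites in direct repeat. Only an exact form of it, with both sites identical, was searched, so members' windows may still hold other forms. This exact form was in no member's window and in 5 of all windows. These are matches of letters, not measured binding, and CCAAT and GGGCGG were in windows of genes that fell, rose or were not called alike.

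In the mevalonate part 2 of 7 genes fell and none rose, beside 5.91% and 7.37% of all genes. Hmgcs1 (NCBI Gene 208715, chromosome 13, 119690351 to 119708260, GRCm38) encodes the cytosolic synthase that condenses acetyl-CoA units to HMG-CoA. It was at 101, 87.7 and 83.2 CPM in control against 61.4, 62.9 and 72.4 CPM in DSS, in the order of mice 1716, 1717 and 1718. Every DSS library lay below every control library. The log2 fold change was -0.47 ± 0.10 (edgeR adjusted p = 0.0212), and the gap was widest in mouse 1716 and narrowest in mouse 1718. Fdps (NCBI Gene 110196, chromosome 3, 89093588 to 89101967) encodes farnesyl diphosphate synthase, the branch point to sterols and prenyl groups. Its control libraries held 41.0, 37.2 and 37.9 CPM and its DSS libraries 27.2, 30.5 and 33.1 CPM. Again the groups did not overlap, with a log2 fold change of -0.35 ± 0.09 (edgeR adjusted p = 0.0423).

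Mevalonate kinase, encoded by Mvk, was at 12.1, 11.1 and 11.4 CPM in control against 8.33, 8.68 and 9.73 CPM in DSS. The groups did not overlap, yet the gene passed in edgeR only with the mouse as a block (log2 fold change -0.37 ± 0.10, edgeR adjusted p = 0.0577, and 0.0348 with the block). DESeq2 did not call it, with the block (adjusted p = 0.207) or without (0.117). Idi1, the isomerase that readies isoprenoid units for joining, was at 18.5, 15.9 and 12.4 CPM in control against 8.50, 13.1 and 12.7 CPM in DSS. Its log2 difference was -1.08 in mouse 1716 and 0.03 in mouse 1718, and it was not called (edgeR adjusted p = 0.195). Mvd, the mevalonate diphosphate decarboxylase next to it in the pathway, had a log2 fold change of 0.26 ± 0.13 (edgeR adjusted p = 0.242) and was higher in DSS in each mouse. Pmvk and Acat2 had values of -0.27 ± 0.18 and -0.10 ± 0.12 and were not called. The median over the 7 genes was -0.35, against 0.01 over all genes tested.

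Cyp51 held the largest fall. Of the 11 genes of the squalene and sterol part it was the only one called without the block (9.09%, beside 13.3% of all genes). Cyp51 (NCBI Gene 13121, chromosome 5, 4080674 to 4104697) encodes the demethylase that acts on lanosterol, the first sterol of the pathway. Control libraries held 52.2, 46.9 and 49.9 CPM and DSS libraries 29.0, 32.4 and 36.0 CPM, with no overlap. The log2 fold change was -0.61 ± 0.09 (edgeR adjusted p = 0.00668, and 0.00194 with the block), or 34.6% lower on the linear scale. The call held in each of 6 fits without 1 library and was lost without both libraries of mouse 1717 (edgeR adjusted p = 0.0755).

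With the block 3 further genes of the sterol part passed, which made 4 of 11 (36.4%, beside 25.0% of all genes). Sqle, the epoxidase that commits squalene to ring formation, was at 38.6, 33.8 and 37.7 CPM in control against 23.8, 26.3 and 31.7 CPM in DSS. Its log2 fold change was -0.43 ± 0.12, at an edgeR adjusted p of 0.0513 without the block and 0.0134 with it, and DESeq2 gave 0.0295 without and 0.018 with it. Nsdhl, a dehydrogenase that helps strip methyl groups from the sterol ring, was at 14.6, 12.5 and 15.5 CPM in control against 8.90, 10.8 and 11.9 CPM in DSS. Its edgeR adjusted p was 0.0831, and 0.0299 with the block, a call that DESeq2 with the block did not make (0.106). In both genes every DSS library lay below every control library.

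Sc5d went the other way. This desaturase acts near the end of the pathway, and its level was 52.4, 51.2 and 46.0 CPM in control against 59.9, 61.9 and 54.2 CPM in DSS. The log2 fold change was 0.23 ± 0.08, with an edgeR adjusted p of 0.105, and 0.0205 with the block. DESeq2 did not call it, at an adjusted p of 0.177 with the block and 0.223 without. The lowest DSS library lay just above the highest control library. Over the 18 enzymes of synthesis, edgeR with the block called 6 lower and 1 higher, beside 12.7% and 12.3% of all genes. DESeq2 with the block called 3 lower (Hmgcs1, Cyp51 and Sqle) and none higher, beside 8.56% and 8.02% of all genes.

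The other 7 genes of the sterol part were not called in either fit. Their log2 fold changes were -0.20 ± 0.10 for Msmo1, the methylsterol oxidase, and -0.09 ± 0.09 for Lss, which closes the rings to lanosterol. Fdft1, the squalene synthase, had 0.06 ± 0.10. The reductases Tm7sf2, Hsd17b7 and Dhcr7 had 0.11 ± 0.17, -0.07 ± 0.15 and 0.13 ± 0.14, and the isomerase Ebp had -0.03 ± 0.10. Groups overlapped in all of these. The median over the 11 genes was -0.07.

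**Figure D2:**
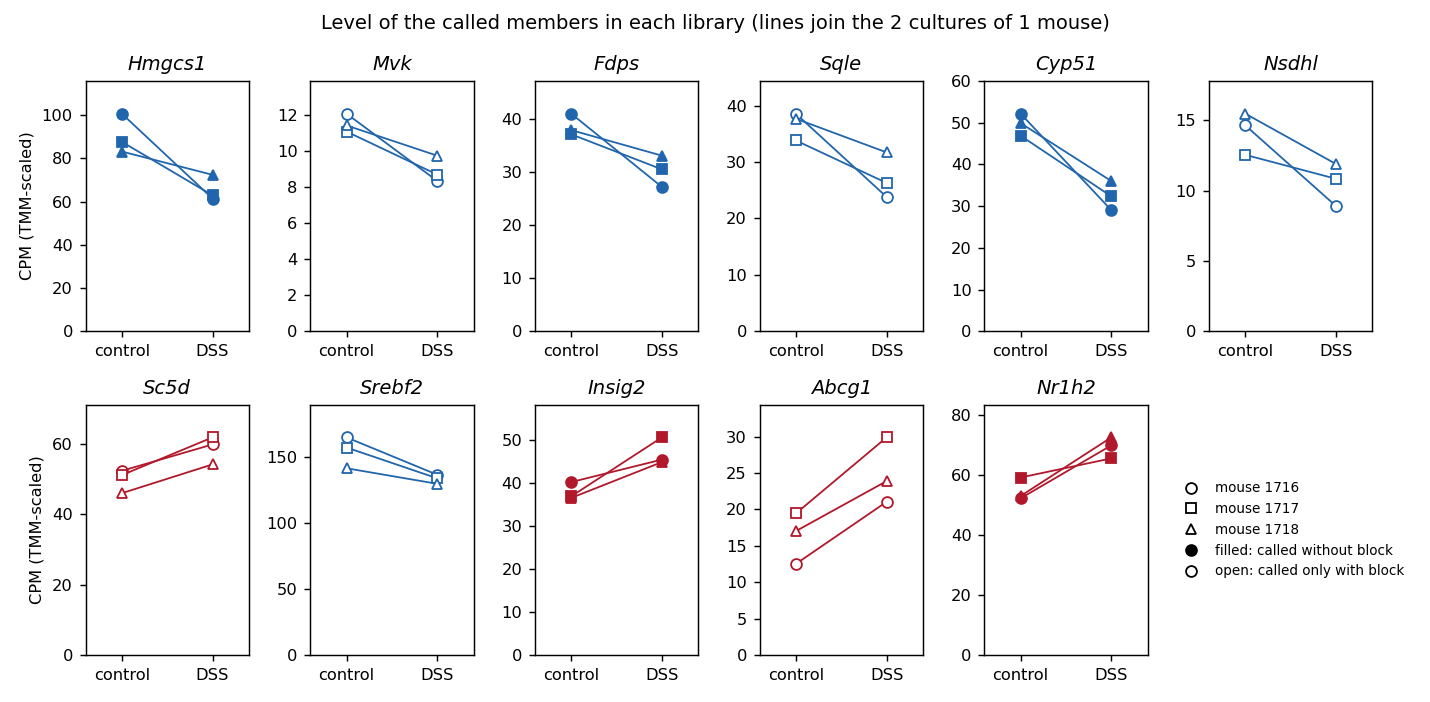
CPM in each library for the 11 genes called without or with the mouse as a block, on axes that start at 0; lines join the control and DSS culture of 1 mouse. In Hmgcs1, Fdps, Cyp51 and Sqle the steepest line belongs to mouse 1716, and for every gene shown the lines of all 3 mice run the same way.

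Among the 5 regulators Insig2 was called (20%, beside 13.3% of all genes). Insig2 (NCBI Gene 72999, chromosome 1, 121304353 to 121332662) encodes a protein of the endoplasmic reticulum that retains Scap. It was at 40.1, 36.8 and 36.5 CPM in control against 45.4, 50.5 and 44.8 CPM in DSS, with no overlap. The log2 fold change was 0.31 ± 0.08 (edgeR adjusted p = 0.0393, and 0.0174 with the block). Its counts were divided over several transcripts, of which the leading one held 48.8% and the next 30.7%. In control the leading one had 438, 271 and 331 estimated counts, and in DSS 420, 380 and 393. These counts are not scaled to depth, and the DSS library of mouse 1716 held 17303371 counts against 19482938 in its control. The next one had 186, 173 and 159 in control, and in DSS 272, 395 and 219. Another, with 8.86% of the counts, went in mouse 1717 from 136 to 24.3 and in mouse 1718 from 94.7 to 99.7, and was near 0 in the DSS library of mouse 1716 (50.1 in control). The rise of the gene was thus not shared by all its transcripts. How kallisto divides reads among transcripts adds error to such values. Its relative Insig1, which is itself a target of the pathway, was at 42.9, 38.2 and 35.5 CPM in control against 35.6, 37.9 and 38.6 CPM in DSS. Insig1 was not called (log2 fold change -0.06 ± 0.09).

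Srebf2, the factor that drives most genes of cholesterol synthesis, was at 165, 157 and 141 CPM in control against 137, 134 and 130 CPM in DSS. The groups did not overlap, but the change was small, at -0.21 ± 0.08 on the log2 scale. The edgeR adjusted p was 0.109, and 0.0359 with the block. DESeq2 with the block gave 0.118. Srebf1, which acts more on fatty acid genes, was at 86.9, 82.9 and 84.7 CPM in control against 78.2, 77.3 and 76.7 CPM in DSS. It too was lower in every DSS library and was not called (-0.13 ± 0.06, edgeR adjusted p = 0.175, and 0.119 with the block). Scap, their escort, had 0.09 ± 0.07.

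Neither gene of sterol transport was called. Stard4, a cytosolic sterol carrier, was at 39.8, 35.6 and 34.9 CPM in control against 31.3, 28.2 and 33.9 CPM in DSS. The groups did not overlap, with -0.24 ± 0.09 and an edgeR adjusted p of 0.141 (0.0637 with the block). Npc1, which hands cholesterol taken up from outside over from the lysosome to other membranes, had a mean of 132 ± 14.9 CPM in control and of 133 ± 23.9 CPM in DSS libraries (SD, n = 3). Its log2 fold change was 0.01 ± 0.14.

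On the efflux and storage side Nr1h2 rose. Nr1h2 (NCBI Gene 22260, chromosome 7, 44549616 to 44553968) encodes the liver X receptor found in most tissues. It was at 52.1, 59.1 and 52.9 CPM in control against 69.8, 65.4 and 72.4 CPM in DSS, with no overlap. The log2 fold change was 0.34 ± 0.08 (edgeR adjusted p = 0.0261, and 0.0148 with the block). The other receptor gene, Nr1h3, was low, at 1.81 to 2.41 CPM in control and 1.77 to 2.27 CPM in DSS, and rested on as few as 31 estimated counts in a library. It had 0.02 ± 0.19 and was not called.

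Abcg1 and Abca1, exporters that pass cholesterol to lipoprotein particles, did not share a direction. Abcg1 was at 12.5, 19.5 and 17.0 CPM in control against 21.1, 29.9 and 23.9 CPM in DSS. Its lowest DSS library lay above its highest control library, and its log2 fold change of 0.61 ± 0.19 was the largest rise among the 30 genes. Without the block it was not called (edgeR adjusted p = 0.074). With the block it was (0.00151), as it was with DESeq2 without (0.031) and with the block (0.000615), and the log2 differences within mice were 0.73, 0.61 and 0.48. Abca1 was at 584, 678 and 507 CPM in control against 520, 661 and 423 CPM in DSS. The groups overlapped, and the log2 fold change was -0.14 ± 0.17 (edgeR adjusted p = 0.653, and 0.131 with the block). Soat1, the esterifying enzyme, was at 134, 161 and 150 CPM in control against 141, 136 and 122 CPM in DSS and was not called (-0.16 ± 0.09).

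Both exporters are also abundant in macrophages, and the cultures held macrophage transcripts. The 7 markers of macrophages and other leukocytes, none of them at 0, summed to 1942 to 2818 CPM in control and 1236 to 2042 CPM in DSS. Of these Lyz2 and Itgam fell, by 0.94 and 0.82 on the log2 scale, and Cd68 rose by 0.71 (named after their values were seen). With the mouse as a block Csf1r and Cd14 were lower too, and Ptprc and Adgre1 were called in neither fit. In bulk RNA, fewer cells of a type and less RNA per cell cannot be told apart. The part of these cells in the values of Abca1, Abcg1 and the other genes was not tested.

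Set against each other, the 25 genes of synthesis and uptake had a median log2 fold change of -0.10 and the 5 of efflux and storage one of 0.02, beside 0.01 over all genes tested. Below 0 were 17 of the 25 and 2 of the 5. The 25 take in Insig1 and Insig2, whose proteins hold Scap back, and no receptor for uptake, so their median is not a measure of synthesis alone. The libraries of the groups did not overlap, with DSS lower, for 9 of the 30 genes, all of synthesis and uptake, against 16.5% of all genes tested. With DSS higher they did not overlap for 4, namely Sc5d, Insig2, Abcg1 and Nr1h2, against 17.7% of all genes. The 19 genes called in neither fit ran from -0.45 to 0.26, and in 17 of them the groups overlapped.

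Differences of the enzymes of synthesis were also taken within each mouse. Within a mouse, the median log2 difference over the 18 enzymes was -0.31 in mouse 1716, -0.23 in mouse 1717 and 0.06 in mouse 1718. Above 0 were 3, 4 and 11 of the 18, so in mouse 1718 most enzymes were not lower. The summed level of the 18 went from 528 to 400 CPM in mouse 1716, from 475 to 417 CPM in mouse 1717 and from 465 to 452 CPM in mouse 1718. For the 7 mevalonate genes the medians were -0.51, -0.28 and -0.15, and for the 11 sterol genes -0.26, -0.17 and 0.08. With 1 pair of cultures per mouse the difference between mice was not tested. The efflux and storage genes had medians of 0.07, 0.15 and -0.13.

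**Figure D3:**
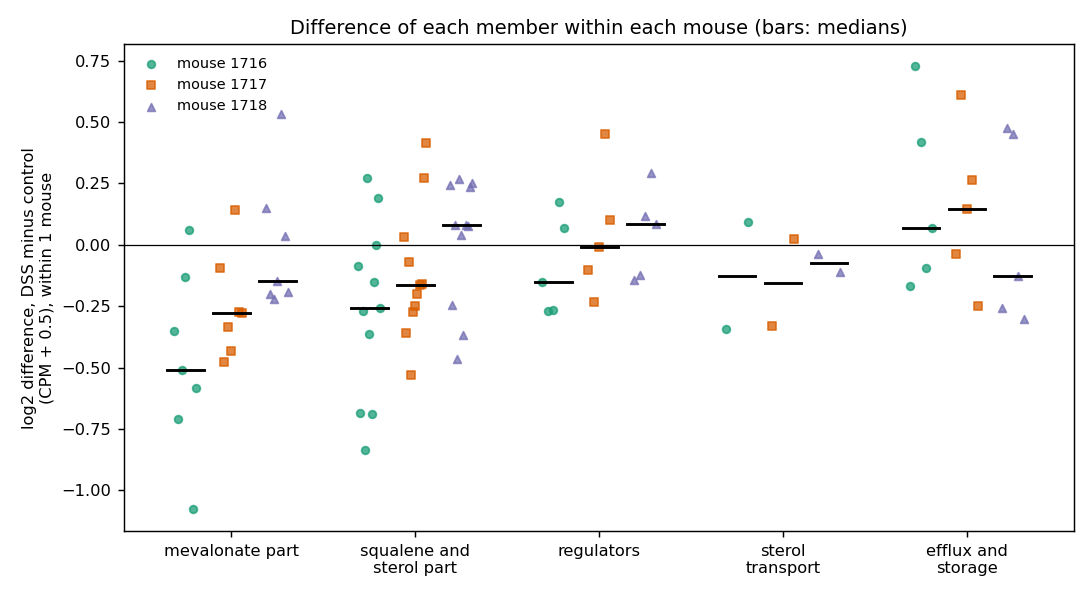
Log2 difference of DSS minus control within each mouse, computed from CPM + 0.5, for each of the 30 genes by role; black bars are medians, and exporters, receptors and Soat1 are drawn together. The mevalonate median is below 0 in all 3 mice (-0.51, -0.28 and -0.15), and that of the sterol part is above 0 in mouse 1718 only (0.08).

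To compare levels between genes, CPM were divided by the length of the gene's exons in kb (GENCODE, GRCm38). On this scale Abca1 was the highest of the 30 in control, at 57.5 ± 8.39 CPM per kb (SD, n = 3). Srebf2 followed at 30.4 ± 2.35, then Nr1h2, Fdps, Hmgcs1 and Npc1 between 25.3 and 27.3, and from Srebf2 to Npc1 neighbours in this order did not differ beyond their spread. The 11 enzymes of the sterol part were lower, from 2.18 (Tm7sf2) to 16.5 (Msmo1) CPM per kb. Acat2, Mvk, Idi1, Mvd and Pmvk, of the mevalonate part, lay in this range too, from 3.79 (Pmvk) to 8.32 (Acat2). Abcg1, at 2.39, lay far below Abca1, and Nr1h3, at 0.953, was the lowest. Exons of all annotated transcripts were counted in the length, so genes with long rarely used exons are placed too low.

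Other lipid genes were read from lists drawn up by name, with earlier results of these data known. Their shares called, set beside those of all genes, are therefore description and not a test of the lists. Of 29 other genes of cholesterol handling 5 rose and 5 fell (34.5%, beside 13.3% of all genes), with a median of 0.01. Vldlr, a receptor for triglyceride-rich lipoproteins, fell most. It was at 60.5, 101 and 129 CPM in control against 23.1, 25.1 and 24.9 CPM in DSS, a log2 fold change of -1.99 ± 0.25 (edgeR adjusted p = 0.00345, and 0.0622 without mouse 1717). Cav1, the coat protein of cholesterol-rich caveolae, went from 51.0, 41.3 and 47.1 CPM to 21.1, 19.8 and 19.3 CPM (-1.21 ± 0.10, edgeR adjusted p = 0.000841). Tmem97, a sterol-responsive membrane protein, fell by 0.86 ± 0.12, a call lost without mouse 1717 (0.0687) or mouse 1718 (0.0506). These falls were larger than that of any of the 30 genes.

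The other called genes of this list are named after their values were seen. Soat2 and Pltp fell, by 1.36 and 0.70. The genes that rose were Cd36, a lipid scavenger receptor, by 0.85, Abca2 by 0.79, and Lipa, the acid lipase that frees cholesterol from esters in the lysosome, by 0.70. Npc2, the lysosomal partner of Npc1, rose by 0.44 and Scarb1, a receptor for high-density lipoprotein, by 0.42. With the block 9 of the list rose and 6 fell (51.7%, beside 25.0% of all genes), and DESeq2 with the block called 6 and 6.

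In the isoprenoid branch, which uses farnesyl diphosphate for other ends, 2 of 9 genes rose (22.2% called, beside 13.3% of all genes) and none fell (median -0.10). They were Nus1, a subunit of the enzyme that makes the dolichol chain, by 0.35 ± 0.08, and Pdss2, of ubiquinone synthesis, by 0.34 ± 0.09. Pdss1, the partner of Pdss2, had -0.38 ± 0.14 and was not called (edgeR adjusted p = 0.134). The Nus1 call was lost in 7 of 9 fits without a library or a mouse, and that of Pdss2 in all 9 as well as with DESeq2, library size alone, the size factors of DESeq2 or no filter on low counts (edgeR or DESeq2 adjusted p = 0.0505 to 0.257).

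Of 15 genes of fatty acid synthesis and desaturation 3 rose and 3 fell (40.0%, beside 13.3% of all genes, median 0.04). Acss2, which makes acetyl-CoA from acetate, was at 8.92, 8.77 and 8.66 CPM in control against 20.1, 31.9 and 40.5 CPM in DSS. This was a log2 fold change of 1.81 ± 0.24 (edgeR adjusted p = 0.00394, and 0.0689 without mouse 1717). Elovl6, which lengthens fatty acids, rose by 1.05 ± 0.20, a call lost without control 1717 (0.0594), control 1718 (0.0525), mouse 1717 (0.144) or mouse 1718 (0.101). Fads2, a desaturase of polyunsaturated fatty acids, fell by 0.47 ± 0.09, a call lost without mouse 1717 (0.0872) or mouse 1718 (0.0744). Of the others Elovl7 rose, and Scd2 and Elovl1 fell (named after their values were seen). With the block 5 rose and 4 fell (60.0%, beside 25.0% of all genes), and DESeq2 with the block called 3 and 3.

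Of 10 genes outside the members known as targets of liver X receptors, 8 could be tested. Of these 1 rose and 2 fell (37.5%, beside 13.3% of all genes, median -0.04). Mylip and Pltp are also in the list of cholesterol handling, and Scd1 and Fasn in that of fatty acids, so these genes are counted in both places. Lpl, a lipase of lipoproteins, rose by 1.46 ± 0.30, and lost its call in 6 of 9 fits, namely without any 1 control library, DSS 1718, mouse 1717 or mouse 1718 (edgeR adjusted p = 0.053 to 0.151). Pltp fell by 0.70 ± 0.15, and Arl4c, a small GTPase, by 0.46 ± 0.12 at an edgeR adjusted p of 0.0498. Pltp lost its call without control 1717 or 1718 or mouse 1717 or 1718 (0.0528 to 0.155). Arl4c lost it in 7 of 9 such fits (0.0846 to 0.263), with the size factors of DESeq2 (0.0502) and with no filter (0.0581).

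**Figure D4:**
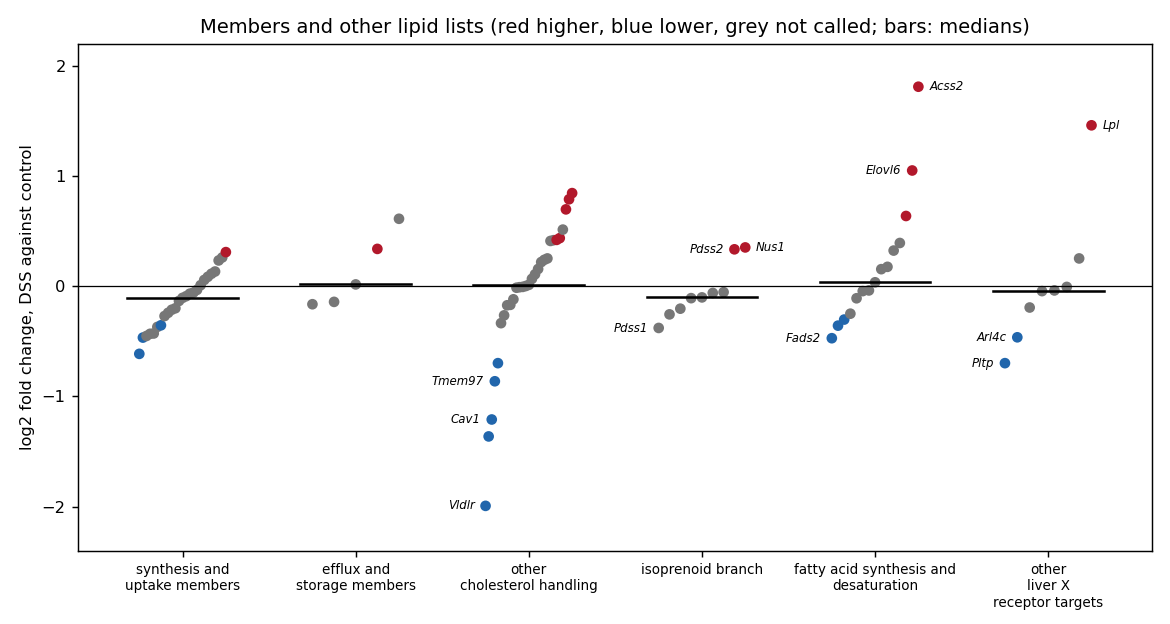
Log2 fold change of DSS against control for the members (first pair of columns) and 4 other lists of lipid genes, sorted within each column, with bars at the medians. The medians lie between -0.10 and 0.04, and the largest values belong to genes outside the members, such as Acss2 (1.81) and Vldlr (-1.99).

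Without the block, each of the 5 calls among the members was lost in at least 1 refit on fewer libraries. Calls over all genes dropped in these refits too, to between 649 and 2418 from 2639. Whether a lost call was due to a given library or to the smaller number of libraries was not tested. Hmgcs1 lost its call without either library of mouse 1716 or 1717, or without mouse 1716 or 1717 (edgeR adjusted p = 0.054 to 0.172). Fdps lost it in 8 of 9 fits without a library or a mouse (0.0818 to 0.205), the exception being without DSS 1718. It also lost it with library size alone (0.0598), with no filter (0.0624) and with DESeq2 and the block (0.0555). Insig2 lost it in all 9 (0.0564 to 0.287), with DESeq2 (0.0681, and 0.0904 with the block) and with no filter (0.0601). Nr1h2 lost it in 7 of 9 (0.0568 to 0.21), the exceptions being without control 1717 and without DSS 1717. The log2 fold change of each of these 5 genes, Cyp51 included, kept its sign in all 17 alternatives run. Over the 9 refits on fewer libraries it ran from -0.61 to -0.34 for Hmgcs1 and from -0.45 to -0.24 for Fdps. For Cyp51 it ran from -0.70 to -0.50, for Insig2 from 0.23 to 0.38 and for Nr1h2 from 0.27 to 0.44.

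Counts of some members are uncertain. Fdft1 and Ctsb, a cathepsin at 863 CPM in control, share 774 bases of exon on opposite strands, and Cyp51 and Akap9 share 166. Srebf1 and Rai1 share 109 bases, and Npc1 and Rmc1 192. The called genes with such overlaps are Cyp51, whose partner Akap9 had a mean of 124 CPM in control, Hmgcs1 and Fdps. Hmgcs1 shares 557 bases with the antisense gene Gm48342 and Fdps 1124 bases with Gm43738 on its own strand. The sources do not say whether counting used strand, so reads there cannot be told apart. Acat2 has a close copy, Acat3, with a mean of 6.75 CPM in control and of 6.33 CPM in DSS libraries, and reads could be split wrongly between them.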

How the data were processed

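RNA of 6 cultures of mouse colonic fibroblasts, 3 control and 3 DSS, was sequenced from strand-specific libraries after removal of ribosomal RNA, per the labels' protocols. The authors deposited estimated counts per RefSeq transcript, made with kallisto, with GRCm38 and mm10 as builds, per the submitters' processing notes. The sources used here give neither the version nor the settings of kallisto. The 120299 transcripts were summed to 38896 gene symbols and rounded. Genes were filtered by filterByExpr with a minimum count of 10 and a minimum total of 15. After TMM scaling they were tested by edgeR's quasi-likelihood test with group as the only term. P-values were adjusted over all 19869 genes (threshold 0.05), and the SE is the log2 fold change divided by the square root of F. The libraries pair by animal. Deviations of the control and DSS library of mice 1716, 1717 and 1718 from their group means correlated across genes with r = 0.327, 0.198 and 0.438. Values with the mouse as a block therefore stand beside the results they change. Differences within mice used log2 of CPM + 0.5. Alternatives were DESeq2 without and with the block, limma-voom, the size factors of DESeq2, library size alone, no filter, no ribosomal RNA entries, and leaving out each library or mouse. A fit that leaves 1 group with fewer libraries assumes that both groups vary alike. The test scripts were tested on simulated data. Genes named are all members, and the 3 with the smallest p in each other list. Members and lists were chosen with earlier results of these data known. The values of 1 list of cell markers are not reported here. Exon lengths and overlaps came from GENCODE vM21, start-site windows from RefSeq. Fits ran in R 4.3.3 with DESeq2 1.42.0, limma 3.58.1 and edgeR 4.0.16, and tables and plots in Python 3.11.15 with numpy 2.4.6, pandas 2.3.3 and matplotlib 3.10.9.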

Additional observations from a re-analysis of the deposited data

How the results depend on the processing

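With 3 libraries per group, the SE of a member's log2 fold change was 0.06 to 0.20. The number of genes called was 2639 without and 4965 with the mouse as a block, and members called went from 2 to 4 higher and from 3 to 7 lower with the block, which removed no call of a member in edgeR. DESeq2 with the block called 3039 genes, and 2 members higher and 3 lower; it did not make the edgeR calls with the block of Mvk, Nsdhl, Srebf2, Sc5d, Fdps and Insig2. In the other lists the block raised the cholesterol handling genes called higher from 5 to 9 and the fatty acid genes called higher from 3 to 5. Without a filter on low counts 1 member was higher, 1 isoprenoid gene was higher, 1 fatty acid gene was lower and 1 liver X receptor target was lower. Of isoprenoid genes 1 was higher with DESeq2, DESeq2 with the block, the size factors of DESeq2 or library size alone, and 1 liver X receptor target was lower with the size factors of DESeq2. Leaving out a library or a mouse gave 649 to 2418 genes called, 0 to 1 members higher and 0 to 4 lower. It gave medians of -0.188 to -0.0481 for synthesis and uptake and of -0.117 to 0.144 for efflux and storage, so the sign of the latter is not settled. Cholesterol handling genes called ran from 1 to 6 higher and 1 to 5 lower, isoprenoid genes 0 to 1 higher, fatty acid genes 0 to 3 higher and 0 to 2 lower, and liver X receptor targets 0 to 1 higher and 0 to 2 lower. No called member, and no called gene among the 3 named by smallest p in each other list, changed sign in any alternative. No scaling moved the median of all genes by more than 0.1 on the log2 scale.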
